A study of Rattus norvegicus with 18 samples.

Results

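The change in gene expression of the rat colon between day 7 and day 14 after 1 enema of trinitrobenzene sulfonic acid (TNBS) was read from the 3 arrays of day 7 and the 3 arrays of day 14, 6 of the 18 arrays of the study. The members were taken from the sample labels, not from measured values, and all 31042 probe sets that are not array controls were tested. Both groups received the same agent at the same dose, 10 mg TNBS given in 50% ethanol on day 0, and differ, as far as the labels say, in when the colon was taken. Each array is 1 rat, and RNA came from full-thickness colon, so that epithelium, muscle, nerves, vessels and leukocytes were read together on Affymetrix rat genome arrays. The sources used here state neither strain, nor sex, nor age. Rats of each day had been chosen for the arrays by inflammatory markers, among them myeloperoxidase activity, so the neutrophil content of both groups was in part set by that choice, and no group received ethanol without TNBS. The saline control arrays were not used, so the values below say how day 14 differed from day 7 and not whether day 14 had reached the level of a healthy colon.

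TNBS is a hapten: ethanol opens the mucosal barrier, TNBS binds to tissue proteins, and the modified proteins draw an immune reaction that ulcerates the colon. Resolution of such an injury is an ordered process in which the chemokines that call neutrophils are switched off, neutrophils die and are cleared by macrophages, provisional matrix is remodelled, and epithelium closes the defect and differentiates again. The epithelium of the healthy colon takes most of its energy from the oxidation of the bacterial fatty acid butyrate in mitochondria, and this oxidation is known to fail in an inflamed colon.

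Values are the deposited expression values, read as log2, in which a step of 1 is a doubling of signal. A difference is day 14 minus day 7 with the standard error (SE) of a limma linear model fitted to all 12 TNBS arrays (days 2, 5, 7 and 14, 3 each). A gene rose or fell where the two-sided p, adjusted by Benjamini-Hochberg over all 31042 probe sets, was under 0.05; this is the adjusted p given throughout. A gene with several probe sets is represented by the one with the highest mean over the 12 arrays, and every count of genes is of the 14217 genes so represented. The number of rats limits the precision. In bulk tissue, fewer cells of a type and less RNA per cell cannot be told apart, which holds for every gene below.

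The 6 arrays had closely similar overall distributions, with medians between 5.024 and 5.054. The goblet cell mucin gene Muc2 was at 12.30 to 13.49 in the 6 arrays and the muscle filament gene Des, desmin, at 11.15 to 12.65, so the 2 defining tissues of the colon wall were present in every sample. RNA quality was read from transcripts probed at both ends. Signal at the 3 prime end exceeded that at the 5 prime end of Gapdh by 0.59 ± 0.05 (SD, n = 3) on day 7 and 0.58 ± 0.11 on day 14, and in beta-actin the excess was 1.34 ± 0.06 and 1.05 ± 0.14. Exact permutation tests of the 2 gave two-sided p = 0.9 and p = 0.1, and 0.1 is the smallest p that 3 against 3 arrays allow. The beta-actin values of the 2 days did not overlap, whereas those of Gapdh did, and so few arrays cannot show whether beta-actin moved with the day. The part of RNA quality in the results was not tested.

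More genes fell than rose between day 7 and day 14, and the largest falls included neutrophil chemokines, interleukin-1 genes and leukocyte proteins. Of the 215 called genes, 80 belong to the 41 gene lists described below. Of 31042 probe sets, 261 were lower on day 14 (0.841%) and 61 were higher (0.197%). In genes, 175 of 14217 fell (1.23%) and 40 rose (0.281%), and all 215 had day 14 arrays that did not overlap the day 7 arrays. The falls were much larger than the rises: the median difference of the falling genes was -1.92, with 81 of them lower by at least 2, and that of the rising genes was 0.73, with 8 of them higher by at least 1. Over all genes the median difference was 0.06, and the balance of genes with no overlap between days ran the other way, with all 3 day 14 arrays above all 3 day 7 arrays in 2770 genes (19.5%) and below them in 1486 (10.5%). Many small increases and fewer large decreases thus stood side by side, as the plot of all genes shows.

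The number of calls rested on single arrays. Leaving out 1 array at a time left 3 higher and 36 lower probe sets without day 7 replicate 1, 2 and 29 without day 7 replicate 3, 4 and 39 without day 14 replicate 1, 0 and 16 without day 14 replicate 2, and 0 and 0 without day 14 replicate 3, but 81 and 520 without day 7 replicate 2. In the limma fit without day 14 replicate 3 the smallest adjusted p was 0.0503, 70 probe sets were under 0.1, and 4018 had an unadjusted p under 0.05. No call below therefore holds without that array at the threshold used, although all 322 called probe sets kept the direction of their difference in all 6 such fits. The choice of arrays that estimate the spread moved the counts as well, to 256 higher and 576 lower with the 6 arrays alone, and to 113 and 415 without day 2 replicate 1.

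The largest fall of all was in the chemokines that bind the receptor Cxcr2 and draw neutrophils out of the blood. Cxcl2 was at 12.67, 11.46 and 11.56 in the 3 day 7 arrays and at 5.60, 4.50 and 3.72 in the 3 day 14 arrays. The groups were far from overlapping, and the difference of -7.29 ± 0.74 is a 156-fold fall of signal (adjusted p = 0.00729). The day 14 values of 4.50 and 3.72 lie below the medians of their arrays, and how far background signal limits such folds was not tested. Cxcl1 was at 11.40, 9.0 and 9.99 on day 7 and at 6.17, 4.46 and 4.65 on day 14, a fall of 32.8-fold (-5.04 ± 0.62, adjusted p = 0.00962). Cxcl3, another close relative, fell by 2.93 ± 0.48 (adjusted p = 0.0258), and 2 further probe sets of that gene fell as well while another pair stayed near 0. Cxcl6 (-1.93 ± 0.44, adjusted p = 0.0659) and the platelet chemokine Pf4 (-1.85 ± 0.47, adjusted p = 0.0852) were not called, and Ppbp differed by -0.20 ± 0.12. All 6 measured chemokines of this list had day 14 arrays below every day 7 array, as had 10.5% of all genes. Of the 6, 3 fell, and the median difference was -2.43.

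The promoters shown are those of Cxcl1 and Cxcl2, neighbours on chromosome 14. These 2 genes fell furthest among the chemokines that attract neutrophils, and they were picked for display after promoters had been examined. Capitals mark matches to the kappa B consensus, the sequence that the inflammatory transcription factor NF-kappa B binds, on either strand, with overlapping matches joined. The sequences are the 250 bases before the annotated start from RefSeq (build GRCr8), written 5′ to 3′ on the strand of the gene.
Cxcl1, chr14:17479322-17479571, minus strand: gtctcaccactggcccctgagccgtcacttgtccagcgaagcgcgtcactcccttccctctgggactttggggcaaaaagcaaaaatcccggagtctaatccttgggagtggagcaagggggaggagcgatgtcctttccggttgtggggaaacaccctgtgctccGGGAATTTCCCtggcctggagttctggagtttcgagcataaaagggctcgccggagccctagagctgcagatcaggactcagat
Cxcl2, chr14:17467256-17467505, minus strand: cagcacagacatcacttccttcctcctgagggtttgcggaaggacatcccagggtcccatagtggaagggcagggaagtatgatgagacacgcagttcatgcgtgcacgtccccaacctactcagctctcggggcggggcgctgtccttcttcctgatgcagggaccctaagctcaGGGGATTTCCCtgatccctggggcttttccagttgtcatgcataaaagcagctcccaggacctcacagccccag
The marked stretch begins at position -84 from the start in Cxcl1 and at -74 in Cxcl2. Among promoters of 300 bases, 250 before and 50 after the start, the consensus occurred in 7.6% of all 27457, in 9.73% of the 11733 belonging to genes tested, and in 27 of the 141 (19.1%) belonging to genes that fell. The letters of the consensus were widened after promoters had been examined, so neither the matches nor the shares are independent of that choice. A match of letters is a description and not a measured binding site, and these shares were not tested.

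Neutrophil markers themselves fell in part. S100a8 and S100a9, the subunits of calprotectin, which makes up much of the neutrophil cytosol, were at 10.79 to 12.41 and 12.41 to 13.35 on day 7 and at 5.43 to 7.27 and 7.51 to 9.17 on day 14. Both fell (-5.44 ± 0.82 and -4.66 ± 0.66, adjusted p = 0.0197 and 0.0173), and day 14 replicate 2 kept the highest level of both. Csf3r, the receptor of the growth factor that releases neutrophils from the marrow, was at 8.94, 7.89 and 9.02 on day 7 and at 3.81, 3.51 and 3.72 on day 14 (-4.94 ± 0.62, adjusted p = 0.00977). The chemokine receptor Cxcr2 fell by 1.78 ± 0.36 (adjusted p = 0.0475), whereas its relative Cxcr1 differed by -0.01 ± 0.17. Of 17 listed markers 8 were measured, 4 fell and none rose; Mpo, the gene of myeloperoxidase, had no probe set of its own. Pglyrp1, a peptidoglycan-binding protein of neutrophil granules, and Stfa2l2, a member of the stefin family of protease inhibitors, fell too (-4.18 ± 0.73 and -4.51 ± 0.69, adjusted p = 0.0303 and 0.0221). Stefin genes are near copies of each other, so probes may read more than 1 of them.

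Interleukin-1 genes fell together with their natural brakes. Il1b, the cytokine itself, was at 12.82, 11.57 and 11.88 on day 7 and at 7.18, 7.07 and 6.29 on day 14, a 37.9-fold fall (-5.24 ± 0.53, adjusted p = 0.00729). Il1a fell by 3.88 ± 0.63 (adjusted p = 0.0258). The decoy receptor Il1r2, which binds the cytokine without signalling, fell by 6.05 ± 0.84 (adjusted p = 0.0157), the second largest fall of all, from 10.05 to 11.28 on day 7 to 4.09 to 5.00 on day 14. Il1rn, the receptor antagonist, fell by 3.26 ± 0.44 and so did the signalling receptor Il1r1 (-1.3 ± 0.18, adjusted p = 0.0151 and 0.0176), although other probe sets of Il1r1 were at 0.06 and -0.16. In the interleukin-1 and interleukin-6 families 5 of 18 measured genes fell and none rose. Day 14 arrays were below all day 7 arrays in 12 (66.7%), as they were in 10.5% of all genes. Il6 was at 8.09, 5.53 and 6.13 on day 7 and at 3.79, 3.75 and 3.81 on day 14; its difference of -2.80 ± 0.72 was not called (adjusted p = 0.0892), and day 7 replicate 1 held the high value.

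Among other cytokines 2 of 27 fell, both receptors: Tnfrsf1b, a receptor of tumour necrosis factor (-2.69 ± 0.38, adjusted p = 0.0174), and Csf2ra, a receptor chain for the granulocyte and macrophage growth factor (-1.36 ± 0.23, adjusted p = 0.03). Tnf itself had 7.49, 4.89 and 5.63 on day 7 and 4.15, 4.09 and 3.96 on day 14, which did not pass the test (-1.93 ± 0.48, adjusted p = 0.0802; a second probe set was at -0.12). Of 25 chemokines outside the neutrophil group 3 fell, and these were the macrophage inflammatory proteins Ccl3, Ccl4 and Ccl9 that call monocytes (-5.10 ± 0.68, -2.62 ± 0.29 and -3.41 ± 0.40, adjusted p between 0.00851 and 0.0137). Ccl2, the main monocyte chemokine, was 9.34 to 10.60 on day 7 and 6.87 to 7.09 on day 14 (-2.87 ± 0.61, adjusted p = 0.0557). The list as a whole had a median of -0.09, with 5 members above and 5 below without overlap. Each is 20% of the list, where 19.5% of all genes were above and 10.5% below. Ccl20, which lymphoid follicles of the gut use to attract immature dendritic cells and B cells, was above in all day 14 arrays, at 8.57 to 9.35 against 6.81 to 7.60, and was not called (1.51 ± 0.69, adjusted p = 0.304).

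Signalling genes that inflammation switches on fell in part, inducers and feedback inhibitors alike. Below without overlap were 16 of 30 (53.3%), where 10.5% of all genes were, and the median was -0.65. Of the 30, 7 fell: the transcription factors Cebpb (-2.75 ± 0.44) and Junb (-2.26 ± 0.41), the bacterial lipoprotein sensor Tlr2 (-2.68 ± 0.45), the prostaglandin E synthase Ptges (-2.41 ± 0.46), and the inhibitors Socs3 (-2.94 ± 0.42), Nfkbia (-2.60 ± 0.41) and Tnfaip3 (-1.95 ± 0.38), with adjusted p between 0.0176 and 0.0397. The last 3 restrain cytokine and NF-kappa B signalling and are themselves induced by it. Ptgs2, the inducible cyclooxygenase, was at 11.73, 8.39 and 9.63 on day 7 and at 6.88, 4.45 and 4.48 on day 14. Its difference of -4.65 ± 0.98 just missed the threshold (adjusted p = 0.0543), and replicate 1 was highest on both days. Nos2, the inducible nitric oxide synthase, was at 5.85 to 5.93 on day 7 and 5.38 to 5.93 on day 14 (-0.20 ± 0.18, adjusted p = 0.643). Tlr4, the endotoxin receptor, lay in the other direction with every day 14 array above every day 7 array (0.64 ± 0.24, adjusted p = 0.229).

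Macrophage and monocyte markers held the largest number of falling genes of the 41 lists, 10 of 24 with none rising and a median difference of -1.99. Below without overlap were 21 of the 24 (87.5%), where 10.5% of all genes were. The rank by falling genes depends on the fit. Collagens and matrix proteins followed with 9, and led with 26 against 15 in the 6 arrays alone and 35 against 17 in all 18. Clec7a, the receptor for fungal beta-glucan, was at 9.78, 8.45 and 9.25 on day 7 and at 5.72, 5.39 and 5.02 on day 14 (-3.79 ± 0.47, adjusted p = 0.00977). The immunoglobulin receptors Fcgr1a (-3.36 ± 0.56) and Fcgr3a (-1.19 ± 0.22) fell with their signalling chain Fcer1g (-3.01 ± 0.45), the adaptor Tyrobp (-2.67 ± 0.49) and the lysosomal proteins Gpnmb (-2.98 ± 0.48) and Cd68 (-2.62 ± 0.48), with adjusted p between 0.0196 and 0.038. The calcium-binding protein Aif1 (-2.28 ± 0.39) and the integrin Itgax (-2.12 ± 0.40) fell as well (adjusted p = 0.0301 and 0.038). Mrc1, the mannose receptor of tissue and wound macrophages, fell too (-2.15 ± 0.38, adjusted p = 0.0325). Cd163, the haemoglobin scavenger receptor of the same cells, was at 5.71 to 7.15 on day 7 and 4.35 to 5.06 on day 14 without being called (-1.71 ± 0.42, adjusted p = 0.0771). The mean of the list, relative to each gene's mean over the 12 TNBS arrays, was 0.68 to 0.80 on day 7 and -1.50 to -0.77 on day 14.

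Among genes known for ending inflammation the calls were decreases. Of 28 measured pro-resolving and anti-inflammatory genes 0 rose and 3 fell, Il1rn, Mrc1 and Arg1, the arginase of wound macrophages, whose levels were 8.93, 10.95 and 8.95 on day 7 and 6.89, 5.48 and 4.62 on day 14 (-3.95 ± 0.76, adjusted p = 0.0393). The median of the list was -0.38. Anxa1, which mediates glucocorticoid effects on neutrophils, was 10.64 to 11.29 on day 7 and 10.11 to 11.20 on day 14, with overlapping groups (-0.37 ± 0.29, adjusted p = 0.582). Hpgd, which inactivates prostaglandins and is made by differentiated colon epithelium, lay above day 7 in all 3 day 14 arrays (1.15 ± 0.45, adjusted p = 0.238), and the resistin-like Retnla varied too widely on day 7, from 5.53 to 11.76, for its difference of 2.38 ± 1.62 to be read (adjusted p = 0.518).

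Some defence, stress and complement genes fell. Lcn2, which withholds iron from bacteria, was at 11.05, 11.32 and 10.49 on day 7 and at 5.32, 6.25 and 5.66 on day 14 (-5.21 ± 0.84, adjusted p = 0.0258). The antiprotease Slpi (-3.34 ± 0.54), the haemoglobin-binding Hp (-2.75 ± 0.47) and the endotoxin-binding Lbp (-2.07 ± 0.42) fell with it, with adjusted p between 0.0258 and 0.0456. These 4 were the called members of 19 defence genes, with a median of -0.34, or -0.18 without day 7 replicate 1. The epithelial lectin Reg3g was at 6.01, 7.00 and 5.07 on day 7 and at 7.37, 7.78 and 6.18 on day 14 (1.08 ± 0.88, adjusted p = 0.605). Of 26 oxidative stress genes 3 fell: the haem-degrading Hmox1 (-3.44 ± 0.40, adjusted p = 0.00851), mitochondrial superoxide dismutase Sod2 (-1.96 ± 0.34, adjusted p = 0.0301) and secreted glutathione peroxidase Gpx3 (-1.16 ± 0.19, adjusted p = 0.0285), while the median of that list was -0.06, or -0.01 without day 7 replicate 1. In complement and coagulation 4 of 24 fell, the anaphylatoxin receptor C5ar1 (-2.94 ± 0.52), the urokinase receptor Plaur (-2.19 ± 0.38), the C1 inhibitor Serping1 (-1.51 ± 0.26) and the C1 protease C1r (-1.32 ± 0.23), all with adjusted p between 0.0301 and 0.0303. A second probe set of Plaur was at -0.41 ± 0.21 and was not called (adjusted p = 0.37). In all, 18 of 24 (75%) were below without overlap, where 10.5% of all genes were.

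Of 27 measured interferon response genes 2 fell, 1 of them among the furthest of all. Ifit3, which restrains viral translation, was at 10.46, 7.75 and 8.94 on day 7 and at 4.08, 3.82 and 3.81 on day 14 (-5.15 ± 0.51, adjusted p = 0.00729), and the membrane protein Ifitm3 fell by 1.71 ± 0.30 (adjusted p = 0.0303). The median was -0.16, or -0.02 without day 7 replicate 1, and 6 of 27 (22.2%) were below without overlap, where 10.5% of all genes were. Isg15, a ubiquitin-like protein that interferon induces strongly, was at 10.11, 7.73 and 8.55 on day 7 and at 8.10, 7.72 and 7.73 on day 14, so the groups overlapped (-0.95 ± 0.52, adjusted p = 0.398). The core of the interferon-stimulated response element, GAAANNGAA, occurred in the promoters of 13 of 20 list members (65%) with a promoter of 300 bases against 9.5% of all. The list was written as interferon genes, so this share describes the choice of members and not the change between days. The core occurred in 11.3% of genes that fell, 14.3% of genes that rose and 7.18% of genes tested, and these shares were not tested. Antigen presentation genes had a median of -0.10, or -0.03 without day 7 replicate 1, and the lysosomal protease Lgmn was the 1 of 23 that fell (-1.85 ± 0.32, adjusted p = 0.0303; another probe set of the gene was at -0.02).

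**Figure D1:**
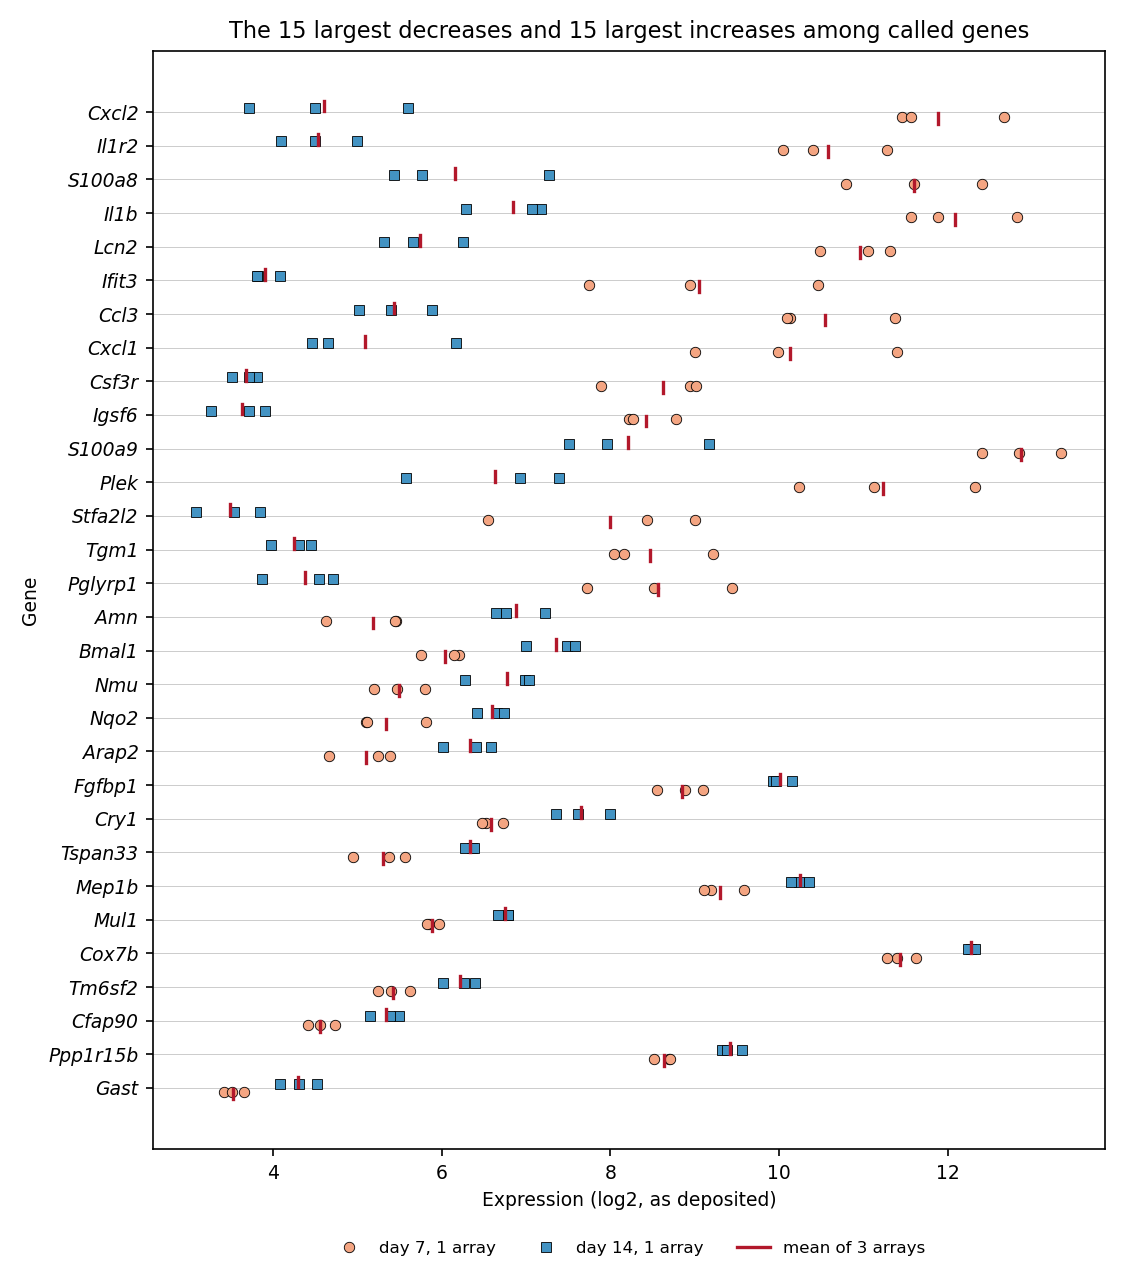
Expression (x axis, log2 as deposited) of the 15 genes with the largest decrease and the 15 with the largest increase among called genes in each array of day 7 (circles) and day 14 (squares), with the mean of 3 arrays as a bar. No circle overlaps the squares of its gene; Cxcl2 at the top falls from about 11.89 to 4.61 on average, and Amn, the largest increase, goes from 5.18 to 6.88.

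Matrix genes fell alongside the leukocyte genes, and almost all lay below day 7. Of 42 measured collagens and matrix proteins 9 fell and none rose, with a median of -1.48. All day 14 arrays lay below day 7 in 39 (92.9%), as they did in 10.5% of all genes. Vcan, the proteoglycan versican of provisional matrix, was at 9.36, 9.41 and 9.21 on day 7 and at 6.48, 5.62 and 4.73 on day 14 (-3.72 ± 0.72, adjusted p = 0.0397). Others that fell were the basement membrane genes Col4a1 (-1.77 ± 0.34), Col15a1 (-1.89 ± 0.37), Col18a1 (-1.92 ± 0.34) and Lama4 (-1.53 ± 0.31), the microfibril genes Fbn1 (-1.43 ± 0.21), Col6a1 (-1.19 ± 0.19) and Col6a2 (-1.34 ± 0.25), and the proteoglycan Bgn (-1.54 ± 0.24), with adjusted p between 0.0196 and 0.0479. A second probe set of Col18a1 just missed the threshold (-1.53 ± 0.34, adjusted p = 0.0621). Col1a1, the main chain of scar collagen, was at 11.90, 12.59 and 12.21 on day 7 and at 11.08, 9.36 and 9.89 on day 14. Its day 14 arrays lay below those of day 7 with replicate 1 the highest of them, and it was not called (-2.12 ± 0.50, adjusted p = 0.0706). Fmod, fibromodulin, was the 1 member with a difference above 0 (0.02 ± 0.29).

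Some protease, fibroblast and vessel genes fell as well. Of 28 metalloproteinase and plasminogen genes 5 fell: the leukocyte protease Adam8 (-4.05 ± 0.65), the metalloproteinase inhibitor Timp1 (-2.70 ± 0.52), Plaur, the membrane-bound Mmp14 (-1.39 ± 0.26) and Mmp23 (-1.13 ± 0.22), with adjusted p between 0.0258 and 0.0397. Other probe sets were at -0.02 in Adam8, -0.41 in Plaur, -0.79 in Mmp14 and -0.21 in Mmp23, none of them called. Mmp3 and Mmp9, stromelysin and gelatinase, were not called (-2.22 ± 0.67 and -2.63 ± 0.69, adjusted p = 0.132 and 0.0936). Both had every day 14 array below every day 7 array, as had 20 of the 28 (71.4%) and 10.5% of all genes. Podoplanin Pdpn, the matrix protein Tgfbi and S100a4 were the 3 of 17 fibroblast markers that fell (-1.98 ± 0.34, -1.34 ± 0.24 and -1.96 ± 0.40, adjusted p between 0.03 and 0.0482). Kdr, the main receptor of vascular endothelial growth factor, was the 1 of 19 endothelial genes that fell (-1.78 ± 0.32, adjusted p = 0.0347, with another probe set at 0.07). Below without overlap were 11 of the 19 (57.9%), where 10.5% of all genes were. The growth factor Igf1, made by stromal cells and macrophages, fell by 2.29 ± 0.44 (adjusted p = 0.0387), while its other probe sets, at -1.71 and -1.43, were not called. It was the 1 called gene of 26 epithelial repair growth factors and receptors, a list with a median of 0.30. Without overlap 9 of the 26 (34.6%) were above and 6 (23.1%) below, where 19.5% and 10.5% of all genes were.

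Epithelial identity genes lay above their day 7 level by small amounts that did not pass the test. All 21 measured epithelial identity and keratin genes had a positive difference, the median was 0.70, and none was called. Every day 14 array was above every day 7 array in 17 (81%), as in 19.5% of all genes. Krt20, the keratin of mature surface cells, was at 9.87, 10.90 and 10.70 on day 7 and at 11.81, 11.62 and 11.68 on day 14 (1.21 ± 0.33, adjusted p = 0.101). Krt18, the keratin of all gland epithelium, was at 9.05 to 9.75 and 10.18 to 10.59 (0.89 ± 0.20, adjusted p = 0.0666). Epcam, Cdh1 and Cdh17, adhesion proteins found on every colon epithelial cell, lay at 0.41 ± 0.21, 0.60 ± 0.30 and 0.61 ± 0.21, none of them called and all without overlap. Of the transcription factors that keep intestinal identity, Hnf4a was at 10.20 to 10.40 on day 7 and 10.67 to 11.46 on day 14 (0.86 ± 0.35, adjusted p = 0.259; a second probe set was at 0.18 ± 0.69). Cdx2 was at 7.36, 9.48 and 9.0 against 9.55, 9.74 and 9.43 (0.96 ± 0.52, adjusted p = 0.394). All 13 measured tight junction genes were positive too, with a median of 0.68. Above without overlap were 10 (76.9%), where 19.5% of all genes were.

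Day 7 replicate 1 weighed on these lists. The mean of the epithelial identity list was -0.72 in that array and -0.17 and -0.16 in the other day 7 arrays, against 0.24 to 0.47 on day 14. Without that array the median difference was 0.52 in place of 0.70, and again 17 of 21 genes lay above without overlap, where 24.4% of all genes did. Between the days the macrophage and collagen lists moved the opposite way. In day 7 replicate 1 collagens averaged 1.03, against 0.70 and 0.71 in the other day 7 arrays. Macrophage markers did not stand apart there, at 0.74 against 0.68 and 0.80. Macrophage markers were below without overlap in 22 of 24 genes and collagens in 39 of 42 without day 7 replicate 1, where 13.3% of all genes were. How far the higher epithelial values follow from fewer leukocytes and stromal cells in the same piece of tissue was not tested.

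Among genes of the absorptive cell, Amn and Mep1b rose. Amn, the partner of cubilin in the vitamin B12 receptor, was at 4.63, 5.46 and 5.45 on day 7 and at 7.23, 6.76 and 6.64 on day 14, the largest increase of any called gene (1.70 ± 0.31, a 3.25-fold rise, adjusted p = 0.0347; a second probe set was at 0.50 ± 0.15, adjusted p = 0.123). Mep1b, the beta subunit of the brush border protease meprin, was at 9.11 to 9.59 on day 7 and 10.14 to 10.36 on day 14 (0.95 ± 0.19, adjusted p = 0.0455). Anpep, aminopeptidase N, a brush border enzyme that myeloid cells carry as well, went the opposite way, from 8.67, 8.49 and 8.19 to 6.04, 5.79 and 6.35 (-2.39 ± 0.45, adjusted p = 0.0368). These 3 were the called members of 26, of which 23 had a positive difference. The median was 0.99, or 0.57 without day 7 replicate 1. Above without overlap were 14 (53.8%), where 19.5% of all genes were. Guca2a, guanylin, which sets fluid secretion, was at 10.80, 12.39 and 12.57 against 12.95 to 13.08 (1.10 ± 0.58, adjusted p = 0.375). Car1, carbonic anhydrase, was at 11.35, 13.14 and 13.34 against 13.21 to 13.34, so that only replicate 1 of day 7 was low (0.65 ± 0.68, adjusted p = 0.708).

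Promoters of Muc3 and Sult1b1, absorptive cell genes whose day 14 arrays all lay above day 7 without a call, are shown as the counterpart of the chemokine promoters. Muc3, a membrane mucin of the brush border, was at 11.03 to 11.62 and 12.34 to 12.60 (1.10 ± 0.30, adjusted p = 0.103), and the sulfotransferase Sult1b1 at 9.73 to 9.93 and 10.45 to 10.67 (0.78 ± 0.19, adjusted p = 0.0717). Capitals mark the letters AGGNCAAAG on either strand, the core of the direct repeat that PPAR and HNF4 type nuclear receptors bind, and build and window are as above.
Muc3, chr12:25138826-25139075, plus strand: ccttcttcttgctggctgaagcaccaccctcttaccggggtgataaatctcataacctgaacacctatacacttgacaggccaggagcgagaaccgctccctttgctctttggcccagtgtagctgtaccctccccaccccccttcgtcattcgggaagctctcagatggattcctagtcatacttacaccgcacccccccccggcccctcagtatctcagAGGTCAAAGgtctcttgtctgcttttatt
Sult1b1, chr14:20771667-20771916, plus strand: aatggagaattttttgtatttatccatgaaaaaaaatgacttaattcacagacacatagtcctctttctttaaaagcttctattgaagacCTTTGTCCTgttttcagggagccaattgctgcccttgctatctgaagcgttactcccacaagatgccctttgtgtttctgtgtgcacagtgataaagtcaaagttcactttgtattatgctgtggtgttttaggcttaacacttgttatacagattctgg
The match begins at position -29 in Muc3 and at -160 in Sult1b1, where it lies on the opposite strand. These letters occurred in 3 of the 23 absorptive cell genes with a promoter of 300 bases (13%) and in 2.02% of all promoters, and these 2 genes were picked for display after their matches were known. Of the 35 genes that rose with such a promoter, 0 held them, and 0 held the HNF4 site core CAAAGTCCA, which 0.375% of all promoters held.

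The lists of ion transport, goblet cell and enteroendocrine genes, the last of which does not hold Gast, had no called member. The ion and water transport list had a positive difference in 33 of 34 genes and a median of 0.74, or 0.39 without day 7 replicate 1. Without that array 31 of the 34 were positive, as were 8532 of all 14217 genes. With all arrays 13 of the 34 (38.2%) were above without overlap, where 19.5% of all genes were. Aqp8, a water channel of surface colonocytes, was at 6.19, 5.24 and 5.13 on day 7 and at 9.01, 6.75 and 7.93 on day 14, groups that do not overlap, although the difference was not called (2.38 ± 0.93, adjusted p = 0.24). The chloride exchanger Slc26a3 was at 9.37, 10.66 and 10.21 against 11.36, 10.88 and 11.13 (1.04 ± 0.56, adjusted p = 0.383). The sodium exchanger Slc9a3 was at 7.28, 10.55 and 9.21 against 10.91, 10.46 and 10.03, where 1 day 7 array reached the day 14 level (1.45 ± 0.96, adjusted p = 0.503). The sodium channel subunit Scnn1a was at 6.00 to 6.36 against 7.03 to 7.95 (1.42 ± 0.49, adjusted p = 0.186), whereas its partner Scnn1b differed by 0.31 ± 0.25.

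Goblet cell genes had a median of 0.55, with 7 of 15 (46.7%) above without overlap, where 19.5% of all genes were. Tff3, the trefoil peptide that helps close mucosal defects, was at 10.62 to 11.05 and 11.29 to 11.50 (0.55 ± 0.21, adjusted p = 0.231). Muc2 was at 12.30, 13.32 and 13.33 against 13.38 to 13.49 (0.46 ± 0.30, adjusted p = 0.487). Chga, chromogranin A of hormone-secreting cells, was at 4.92, 6.86 and 7.03 against 7.93, 8.43 and 7.55 (1.70 ± 0.57, adjusted p = 0.174). Cell division genes had a median of 0.30 with 7 of 36 (19.4%) above without overlap, a share near the 19.5% of all genes. Without day 7 replicate 1 the share was 50.0%, where 24.4% of all genes were above. The thymidylate synthase Tyms came nearest to a call (0.73 ± 0.19, adjusted p = 0.0876).

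Of the 41 lists, those of the respiratory chain held the largest shares of genes above day 7 without overlap, followed by epithelial identity and the citric acid cycle. In complex I of the respiratory chain, which takes electrons from NADH, all 31 measured subunits had a positive difference and 28 (90.3%) were above without overlap. In complexes III to V, which hand electrons to oxygen and make ATP, this held for all 33 and for 29 (87.9%), and in the citric acid cycle and pyruvate entry for 27 and for 22 (78.6%) of 28. The medians were 0.41, 0.46 and 0.54. Of all genes above the median of mean level, which had a median difference of 0.14, 28.3% were above without overlap. After quantile normalization, which gives all arrays 1 distribution, the counts were 25, 28 and 19 (80.6%, 84.8% and 67.9%), against 22.4% of genes above the median of mean level and 16.9% of all genes. Without day 7 replicate 1 they were again 28, 29 and 22, with medians of 0.29, 0.34 and 0.41.

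Of the genes in these lists 4 passed the test. Ndufv2, a subunit of the NADH-binding module of complex I, was at 9.79, 10.02 and 10.11 on day 7 and at 10.74, 10.65 and 10.75 on day 14 (0.74 ± 0.12, a 1.67-fold rise, adjusted p = 0.0258). The cytochrome oxidase subunit Cox7b was at 11.40, 11.28 and 11.63 against 12.28, 12.24 and 12.32, a 1.79-fold rise (0.84 ± 0.14, adjusted p = 0.0283). Atp5mg of ATP synthase rose by 0.52 ± 0.10 (adjusted p = 0.0364) and Dlst, the E2 subunit of 2-oxoglutarate dehydrogenase, by 0.61 ± 0.12 (adjusted p = 0.0448). In both genes the 3 day 14 arrays lay close together. Close behind came the mitochondrial pyruvate carriers Mpc2 and Mpc1 (0.58 ± 0.13 and 0.60 ± 0.13, adjusted p = 0.0614 and 0.064), the cytochrome oxidase subunit Cox5a (0.56 ± 0.12, adjusted p = 0.0576) and the complex I subunits Ndufv3, Ndufa6 and Ndufs1 (0.60 ± 0.13, 0.61 ± 0.14 and 0.69 ± 0.16, adjusted p between 0.0576 and 0.0667; a second probe set of Ndufv3 was at 0.12 ± 0.20).

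Fatty acid oxidation had no called member. Of 36 genes 33 had a positive difference, and the median was 0.49, or 0.26 without day 7 replicate 1. Above without overlap were 17 (47.2%), where 19.5% of all genes were. Acadm, the medium-chain acyl-CoA dehydrogenase, was at 8.77, 9.61 and 9.37 against 10.41, 10.04 and 9.96 (0.88 ± 0.29, adjusted p = 0.17). Acads, which oxidises butyrate itself, was at 7.77, 8.57 and 8.61 against 9.32, 8.87 and 9.05 (0.76 ± 0.26, adjusted p = 0.182). Cpt1a, the carnitine transferase that admits long-chain fatty acids, was at 8.98, 9.90 and 9.57 against 9.88, 10.00 and 9.88, with overlap (0.44 ± 0.25, adjusted p = 0.426). Ppargc1a, a coactivator that raises mitochondrial gene expression, was at 5.90, 6.61 and 6.75 against 8.07, 7.41 and 7.57 (1.26 ± 0.45, adjusted p = 0.199), and its other probe sets were at 1.5 and 1.14.

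**Figure D2:**
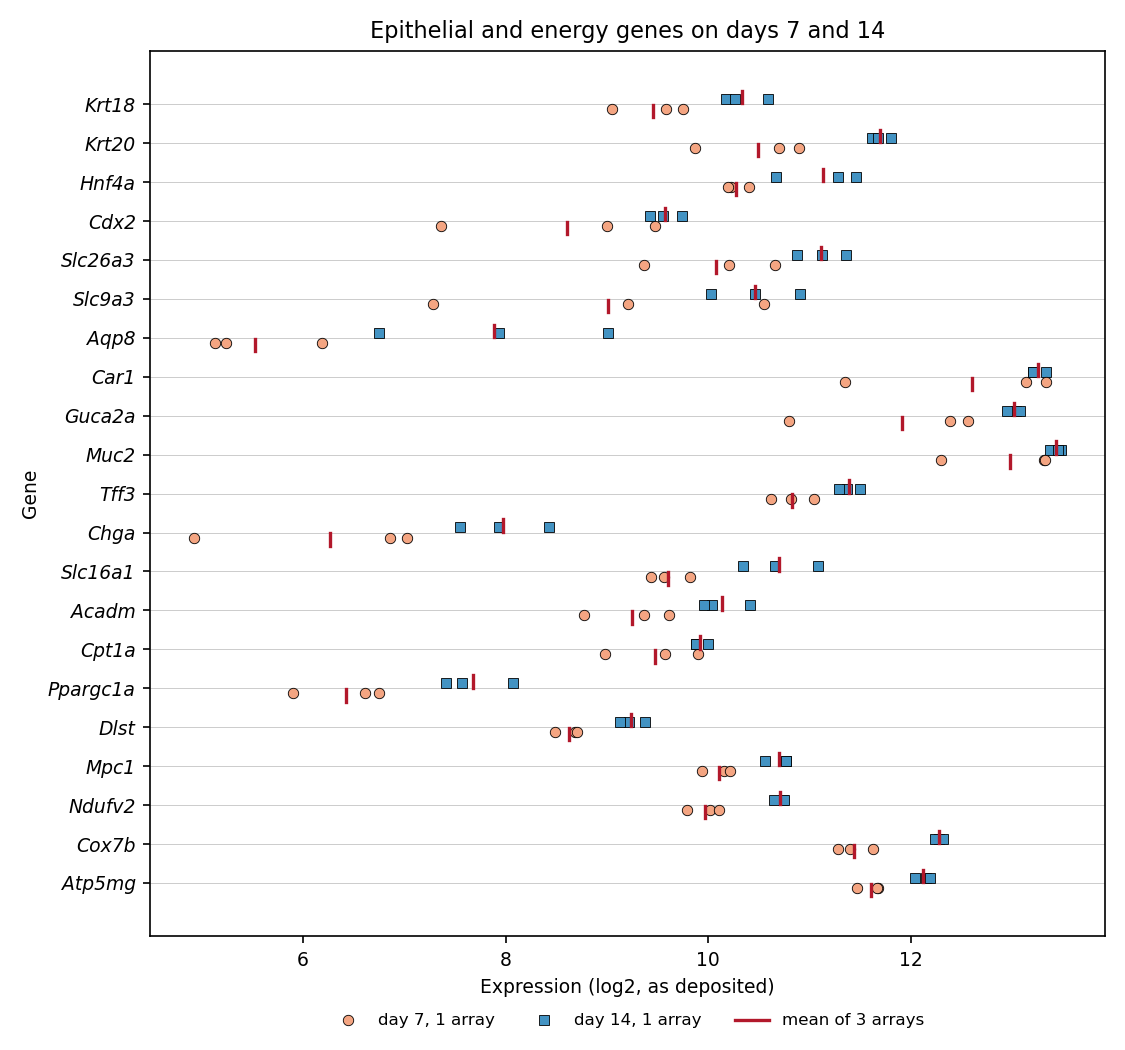
Expression (x axis, log2 as deposited) of 21 epithelial and energy genes in each array of day 7 (circles) and day 14 (squares), with the mean of 3 arrays as a bar. Ndufv2, Cox7b, Atp5mg and Dlst, at the bottom, separate by small steps with little spread, whereas 1 low day 7 array carries much of the difference in genes such as Car1, Muc2 and Cdx2.

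Of 2 monocarboxylate carriers, 1 lay above day 7 without a call and the other fell. Slc16a1, the carrier that takes up butyrate in epithelium, was at 9.44, 9.82 and 9.56 on day 7 and at 11.09, 10.35 and 10.66 on day 14 (1.09 ± 0.29, adjusted p = 0.0961; a second probe set was at 0.16). Slc16a3, the lactate exporter of glycolytic cells, fell from 10.21, 8.71 and 9.17 to 7.43, 7.41 and 7.26 (-2.0 ± 0.38, adjusted p = 0.0387). It was the 1 of 26 glycolysis and hypoxia genes and the 1 of 23 nutrient carriers that was called, and the first list had a median of -0.08, or -0.05 without day 7 replicate 1. Ldha, lactate dehydrogenase, differed by -0.09 ± 0.11 and Hif1a, the hypoxia factor, by -0.91 ± 0.24 (adjusted p = 0.0979). In lipid handling 3 genes fell among 34 of gluconeogenesis and lipid handling: Dgat2, which makes triglycerides (-2.48 ± 0.36), Plin2, which coats lipid droplets (-2.30 ± 0.41), and Abca1, which exports cholesterol (-2.10 ± 0.32), with adjusted p between 0.0176 and 0.0316. Pck1, the gluconeogenic enzyme, was at 8.08, 9.50 and 9.59 against 10.47, 9.77 and 10.32 (1.14 ± 0.56, adjusted p = 0.346). The median of that list was 0.04 and turned to -0.02 after quantile normalization and to -0.05 without day 7 replicate 1.

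Muscle, nerve and lymphocyte markers held few calls. Smooth muscle genes had a median of -0.07, or 0.07 without day 7 replicate 1, with 1 of 20 lower, the integrin Itga8 (-0.97 ± 0.13, adjusted p = 0.0136; another probe set was at -0.23), and nerve, glia and pacemaker cell genes a median of 0.03 (0.05 without that array) with none called among 19. T and natural killer cell markers had a median of 0.10 (0.04 without that array) with none called among 21. B and plasma cell markers had a median of 0.59 with none called among 12 and none without overlap. Without day 7 replicate 1 their median was 0.78 and 7 of 12 (58.3%) were above without overlap, where 24.4% of all genes were. They varied widely among rats: Ms4a1, the B cell protein CD20, was at 6.43, 3.75 and 3.72 on day 7 and at 8.26, 9.21 and 6.41 on day 14 (3.32 ± 1.43, adjusted p = 0.279). Mast cell markers had a median of 0.16, or 0.09 without that array, and Mcpt1, a mast cell protease, was at 6.10, 6.27 and 7.77 against 8.98, 9.02 and 8.72 (2.19 ± 0.66, adjusted p = 0.133). Mesothelial and fat cell markers, which mark the outer surface and attached fat, had a median of -0.96, and Msln, mesothelin, fell by 1.88 ± 0.36 (adjusted p = 0.038); their mean was 0.10 to 0.94 on day 7 and -0.58 to -0.16 on day 14, and the part of tissue sampling in the results was not tested.

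By their means, neutrophil, macrophage and matrix lists were highest on day 7 among the 4 days. Relative to the mean over the 12 arrays, neutrophil markers averaged -0.08, 0.53, 1.06 and -1.50 on days 2, 5, 7 and 14, macrophage markers -0.12, 0.47, 0.74 and -1.09, and collagens -0.36, 0.21, 0.81 and -0.66. Interferon response genes were highest on day 5 (0.40) and lower on day 7 (0.23). Epithelial identity genes averaged -0.07, 0.04, -0.35 and 0.38, fatty acid oxidation genes 0.02, -0.23, -0.13 and 0.34, and complex I genes 0.11, -0.13, -0.21 and 0.24. Arrays of days 2 and 5 spread widely, as in neutrophil markers on day 2, from -1.15 in replicate 1 to 0.54 in replicate 2, and the differences among the earlier days were not tested here.

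**Figure D3:**
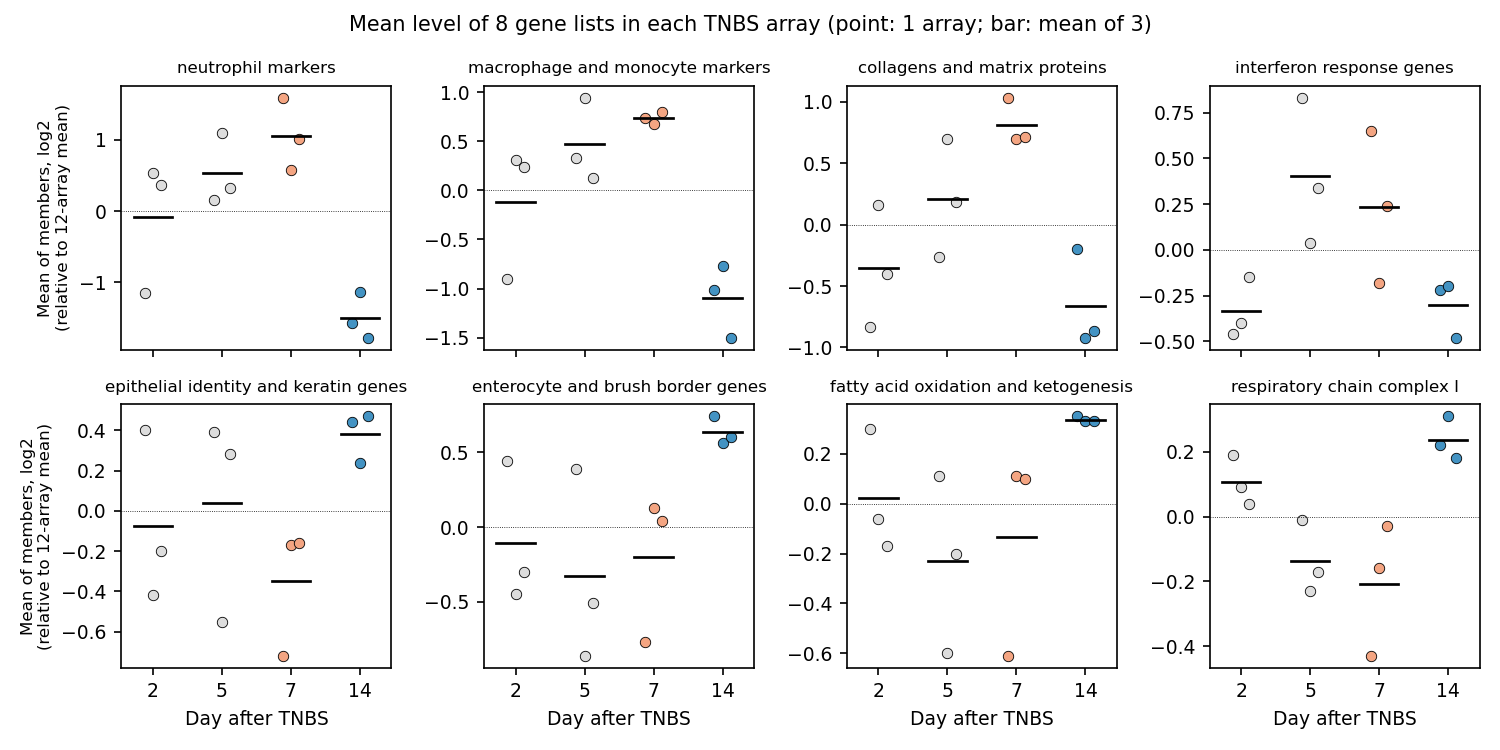
Mean of the measured members of 8 gene lists in each TNBS array (y axis, log2 relative to each gene's mean over the 12 arrays) by day after the enema (x axis), 1 point per array and a bar at the mean of 3. Day 14 arrays lie apart from day 7 arrays in all 8 panels, below them in the 4 upper lists and above them in the 4 lower ones. In interferon response genes they barely do so, with the lowest day 7 array at -0.18 and the highest day 14 array at -0.20.

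Outside the lists, several other genes were among the 15 largest increases. Nmu, neuromedin U, a gut and nerve peptide, was at 5.47, 5.20 and 5.80 on day 7 and at 6.99, 6.28 and 7.04 on day 14 (1.28 ± 0.24, adjusted p = 0.0364). Nqo2, a quinone reductase, rose by 1.26 ± 0.23, Arap2 by 1.24 ± 0.25, and Fgfbp1, which releases fibroblast growth factors from the matrix, by 1.17 ± 0.22 (adjusted p = 0.0339, 0.0489 and 0.0364). Tspan33, a tetraspanin, had the smallest adjusted p of the rising genes, at 4.95, 5.56 and 5.37 against 6.36, 6.28 and 6.38 (1.04 ± 0.14, adjusted p = 0.0157), but its other probe sets were at 0.16 and 0.26. Mul1, a ubiquitin ligase of the mitochondrial outer membrane, rose by 0.87 ± 0.15, Tm6sf2, which acts in lipoprotein secretion, by 0.80 ± 0.14, and Ppp1r15b, which reverses the translational stress response, by 0.78 ± 0.13 (adjusted p = 0.0303, 0.0303 and 0.0258; a second probe set of Ppp1r15b was at -0.06). Gast, gastrin, rose by 0.77 ± 0.14 (adjusted p = 0.0347), at levels of 3.42 to 4.52 that lie below the median of every array. Cfap90, a protein of cilia and flagella, rose by 0.78 ± 0.12 (adjusted p = 0.0258). The clock genes Bmal1 and Cry1 rose by 1.32 ± 0.24 and 1.08 ± 0.20 (adjusted p = 0.0333 and 0.0369). Among the largest decreases outside the lists, Igsf6 and Plek, proteins of myeloid cells and platelets, fell (-4.79 ± 0.55 and -4.60 ± 0.77). So did the transglutaminase Tgm1 (-4.22 ± 0.78), with adjusted p = 0.00851, 0.0286 and 0.0364 for Igsf6, Plek and Tgm1.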

How the data were processed

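Expression had been measured on 18 arrays, and the deposited series table holds 31099 probe sets. Per the labels, the authors normalized the arrays with Bioconductor's affyPLM before they deposited 1 value per probe set, and these values were read here as log2; no source used here states the version, background step, log base or centring. Array controls (57 probe sets) stayed out. Of the remaining 31042, 20826 carried 1 gene symbol, 436 several and 9780 none listed, and 20758 matched the RefSeq table by gene ID.

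limma 3.58.1 (R 4.3.3) fitted 1 coefficient per day to the 12 TNBS arrays, leaving 8 residual degrees of freedom, with Benjamini-Hochberg adjustment over 31042 probe sets. Replicate numbers were taken as names. The p-values measure the spread between these rats.

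Lists (1053 genes, 920 measured) were described by counts and medians. The members, lists and named genes were chosen with earlier results of these data known. Named were the 15 largest increases and decreases among called genes without overlap, leaving out uncharacterised loci, up to 4 members per list by adjusted p, and a panel of 36 genes, of which 1 had no single-symbol probe set. Other list members, such as further called ones, Hpgd, Retnla, Ccl20, Tlr4, Isg15, Epcam and Fmod, were chosen after their values were seen. Promoters from RefSeq (GRCr8, 11733 tested genes matched) were searched for 7 motifs; the kappa B letters were widened and the 4 promoters picked after promoters had been examined. Alternatives changed the scale, filter, variance prior, arrays, weights, block, features and threshold, and left out each array in turn. Lists without day 7 replicate 1 were added after list means by array were seen.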

Additional observations from a re-analysis of the deposited data

How the results depend on the processing

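The counts of 61 higher and 261 lower probe sets kept within 1.5 times under quantile normalization, median centring and a trended or robust prior. The same held without the 25% lowest probe sets. Without the 50% lowest, 394 were lower. Adjusted over 1 probe set per gene alone, 69 genes were higher and 283 lower, against 40 and 175 genes with adjustment over all probe sets. The 6 arrays alone gave 256 higher and 576 lower, all 18 arrays 441 and 956, the fit without day 2 replicate 1 113 and 415, and array weights 540 and 1139. An adjusted p under 0.01 left 1 and 23, and a difference of at least 1 left 11 higher. Leaving out 1 array gave 0 to 81 higher and 0 to 520 lower. Of the 322 called probe sets, 269 were also called after quantile normalization, 277 with the 6 arrays alone and 315 with all 18. List counts depend on the arrays in the fit in the same way: collagens that fell numbered 9, but 26 with the 6 arrays alone and 35 with all 18, and complex I genes that rose numbered 1, 1 and 11. No named gene called changed direction under any alternative; the cause of the changed counts was not tested.

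Replicate numbers were not used to pair the rats. Deviations from the group means correlated at 0.166, 0.168 and -0.003 for replicates 1, 2 and 3 of the 2 days. Between rats of unlike number the correlations ran from -0.19 to 0.03. Whether rats of the same number share a factor was not tested. With the replicate number as a block, 44 probe sets were higher and 148 lower, 157 of them shared with the 322. Rats numbered 1 and 2 correlated best with their own number and those numbered 3 did not.

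Median differences of endoplasmic reticulum folding genes turned from 0.03 to -0.04 after quantile normalization, and those of nutrient carriers from about 0 to -0.01, or 0.01 after median centring.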

Other observations

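The clock genes were looked at together after Bmal1 and Cry1 had been seen among the largest increases, so what follows is a description of 17 genes chosen afterwards. Bmal1, which drives the positive limb of the circadian clock, was at 6.21, 5.76 and 6.15 on day 7 and at 7.49, 7.00 and 7.58 on day 14, and Cry1, a repressor of the same clock, at 6.53, 6.73 and 6.48 against 7.99, 7.35 and 7.62. Npas2 and Clock, partners of Bmal1, lay in the same direction without a call (1.55 ± 0.59 and 0.58 ± 0.20, limma adjusted p = 0.223 and 0.184). Nfil3 and Dbp, output genes, lay in the other direction (-1.23 ± 0.34 and -0.54 ± 0.22, adjusted p = 0.103 and 0.262), while Nr1d1 and Per1 were at 0.02 ± 0.44 and -0.19 ± 0.15. The labels used here give no hour of sampling, so the hour and the day after the enema cannot be told apart.

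Some called genes outside the lists also belong to mitochondria, again named after their values were seen. Hspa9, the chaperone that pulls proteins into the mitochondrial matrix, was at 9.04, 9.20 and 8.74 on day 7 and at 9.62, 9.67 and 9.61 on day 14 (0.64 ± 0.13, adjusted p = 0.0412). The import and processing genes Timm29 and Immp1l rose by 0.59 ± 0.11 and 0.68 ± 0.14 (adjusted p = 0.0364 and 0.0458). Apart from the mitochondrial genes, Dhcr7 of sterol synthesis and Aacs of ketone body use rose by 0.73 ± 0.12 and 0.72 ± 0.13 (adjusted p = 0.0258 and 0.0303).

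Further surface receptors of myeloid cells fell outside the lists: Lilrb4 (-4.00 ± 0.67), the chemokine receptor Ccr1 (-3.58 ± 0.60), Cd300a (-2.16 ± 0.38) and Clec10a, a lectin of macrophages and dendritic cells (-1.76 ± 0.17; adjusted p between 0.00729 and 0.0303). Angptl4, an inhibitor of lipoprotein lipase, fell by 3.79 ± 0.75 (adjusted p = 0.0412), at 8.71 to 8.96 on day 7 and 4.63 to 5.38 on day 14.

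Spread among rats was somewhat smaller on day 14: the median SD over genes was 0.15 against 0.18 on day 7, and 57.6% of genes had the larger SD on day 7. List means did not all follow this. B cell markers spread more on day 14, with list means of 0.88, 1.53 and -0.11 in day 14 replicates 1, 2 and 3, and of 0.28, -0.68 and -0.77 on day 7. So did macrophage markers, at -1.50 to -0.77 on day 14 and 0.68 to 0.80 on day 7, and collagens, at -0.92 to -0.20 and 0.70 to 1.03. Neutrophil markers, among others, spread less on day 14, at -1.78 to -1.14 against 0.58 to 1.59.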
